A study of Mus musculus with 54 samples.

Results

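Flt3 is the receptor for Flt3 ligand and Csf1r is the receptor for macrophage colony-stimulating factor, and a gate on both receptors was set by the study within the common myeloid progenitor (CMP) fraction of mouse bone marrow. The members described here are the wells that the deposited well table describes as CMP Flt3+ Csf1r+, that received 1 cell and that held 500 or more unique molecular identifiers (UMIs). They are 1132 cells in 6 amplification pools, of 8399 such cells in 54 pools in the whole series, and they were compared with 2732 cells in 16 pools described as unsorted myeloid.

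Myeloid progenitors give rise to red cells, platelets, granulocytes, monocytes and dendritic cells. Flt3 ligand and its receptor are needed for normal numbers of dendritic cells, and Flt3 is shared by early lymphoid progenitors. Csf1r marks progenitors of monocytes, macrophages and dendritic cells, and the transcription factor Irf8 is needed for monocytes and for several dendritic cell subsets.

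Cells were profiled by MARS-seq, a plate-based method in which the 3′ ends of the mRNA of each sorted cell receive a well barcode and a UMI before wells are amplified together as a pool. By the labels of the CMP Flt3+ Csf1r+ samples, the gate took wild-type C57BL/6 bone marrow cells that were Lin-, cKit+, Sca1-, CD34+, FcgR(low), Flt3+ and Csf1r+. The unsorted samples are wild-type C57BL/6 cells selected only as Lin-, cKit+ and Sca1-, from mice of the same stated age, 6 to 8 weeks. Marrow of both was enriched for cKit on magnetic beads before sorting.

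The labels and the well table name different groups for 4 of the 6 gate pools, so pools were grouped by the well table. Gate pools 1 and 2 (plate 10, sequencing batch SB20) carry the gate's label. Pools 3 and 4 (plate 11, SB20) are labelled as a Cebpa(flox/flox)Mx1-Cre knockout, in which poly(I:C) induces Cre, from mice aged 14 weeks, and pools 5 and 6 (plate 18, SB25) as an Irf8-GFP strain gated on GFP and MHCII. Cebpa, the gene deleted in the knockout, had 196, 215, 234, 281, 156 and 192 CPM in gate pools 1 to 6, so it was not lower in pools 3 and 4 than in pools 1 and 2. Which of label and well table is right for these 4 pools could not be settled here. Each gene's difference from all unsorted pools was also computed from pools 1 and 2 alone, and is given where its call changed. Shares of cells, and differences from a subset of the unsorted cells, were not computed from pools 1 and 2 alone, but without plate 10 and without plate 11.

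The well table gives 1 mouse identifier to the gate pools and another to the unsorted pools, and the groups share no sequencing batch (SB20 and SB25 for the gate, SB17 and SB19 for unsorted cells). Mouse, batch and gate therefore cannot be told apart, no difference between animals was replicated, and every p-value measures only the spread between amplification pools, which may be technical. The kept gate pools held 285918 to 592204 UMIs and the unsorted pools 473327 to 852363. The totals were 2885927 UMIs in the gate and 9878933 in unsorted pools, and counts of UMIs given below are not scaled for this. The median cell had 2373.5 UMIs in the gate and 3101 in unsorted pools, and 99.3% and 89.9% of wells with a cell were kept. Wells that received no cell held a mean of 20 to 212 UMIs per gate pool and 12.5 to 67 per unsorted pool. All 190 cell barcodes recur in more than 1 pool, since the plates reuse them, and 0 wells were counted in more than 1 pool.

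Levels are given as counts per 1000000 UMIs (CPM) after TMM scaling, and 3 values in a row are the lowest, the median and the highest pool, of 6 gate or 16 unsorted pools. Differences are log2 fold changes of gate over unsorted from edgeR's quasi-likelihood test on UMI counts summed per pool, with p-values adjusted by the Benjamini-Hochberg method over all 7281 genes tested and a threshold of 0.05. In summed pools, fewer cells of a type and less RNA per cell cannot be told apart.

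The receptors that set the gate were checked first, and their levels are a description, not a finding. Flt3 had 359, 470.2, 499, 478, 547 and 375 CPM in gate pools 1 to 6, against 4.18, 23.1 and 54.1 CPM in unsorted pools. Csf1r had 284, 366 and 448 CPM in the gate, against 56.6, 79.0 and 107 CPM in unsorted pools. Cd34, the stem and progenitor sialomucin also used in the gate, had 779, 846 and 956 CPM in the gate, against 94.2, 121 and 190.3 CPM in unsorted pools. Fcgr3, which encodes an Fc receptor of the kind the FcgR(low) gate selects against, had 4.36, 13.1 and 22.6 CPM in the gate, against 59.3, 138 and 254 CPM in unsorted pools. For these 4 genes no gate pool overlapped an unsorted pool. Another Fc receptor gene, Fcgr2b, overlapped, with 32.1, 64.3 and 73.4 CPM in the gate, against 20.6, 39.8 and 70.8 CPM in unsorted pools, and the joined row of Kit, whose value cannot be given to Kit alone, had 76.3, 142 and 181 CPM in the gate, against 103, 141 and 199.6 CPM in unsorted pools. Ly6a, which encodes Sca1, had 13 of the 2885927 UMIs of all gate pools and 19 of the 9878933 of all unsorted pools. Per UMI it was therefore higher in the gate, from few UMIs, and both groups were sorted as Sca1-.

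After each cell was thinned to 1000 UMIs, leaving 1047 gate and 2417 unsorted cells and leaving out 85 gate and 315 unsorted cells with fewer, Flt3 was detected in 34.7% of gate cells and 3.08% of unsorted cells (57.1% and 6.30% before thinning), and Csf1r in 27.6% of gate cells and 8.32% of unsorted cells (48.3% and 17.4% before thinning). Both receptors were detected in 10.2% of gate cells, with 8.11% and 12.4% as the lowest and highest pool, and in 0.248% of unsorted cells. In the 1107 unsorted cells richest in erythroid UMIs, which should lack both, the shares were 0.0903% for Flt3 and 0.452% for Csf1r.

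**Figure D1:**
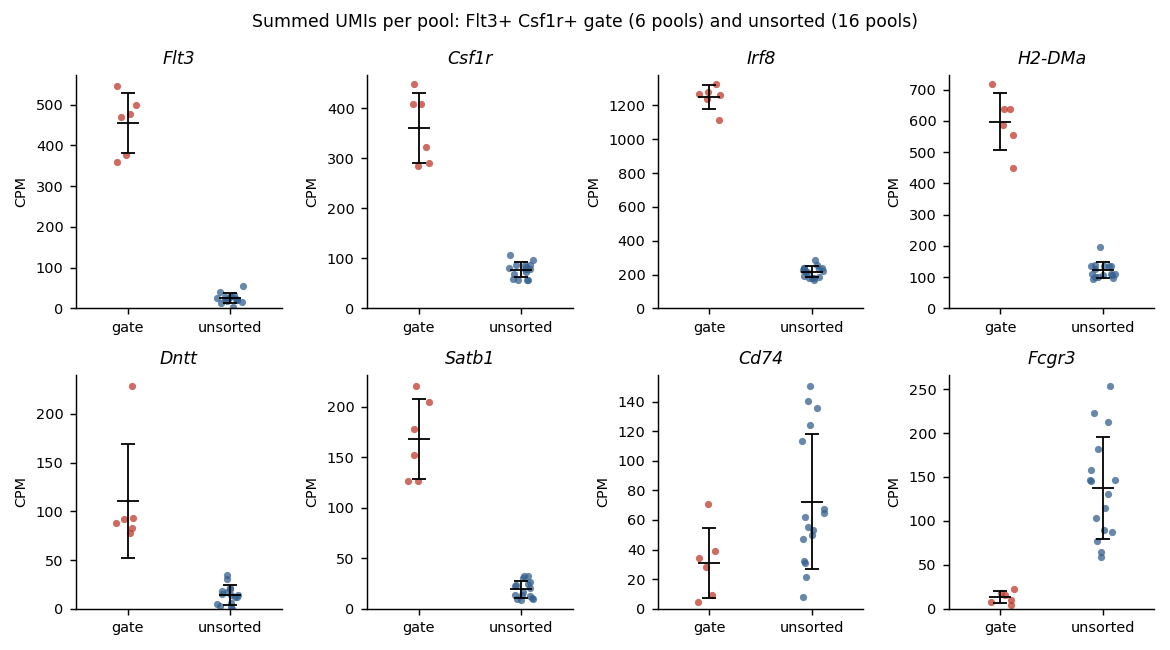
Level in CPM (y axis, linear) of 8 genes in each pool, the 6 gate pools at left and the 16 unsorted pools at right of each panel; points are pools, bars the mean and SD. Flt3, Csf1r, Irf8, H2-DMa, Dntt and Satb1 are higher in every gate pool than in any unsorted pool, Fcgr3 is lower in every gate pool, and Cd74 overlaps.

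Of the genes tested, 2010 (27.6%) were higher and 2054 (28.2%) lower in the gate. For 1118 of all genes tested (15.4%) the pools of the groups did not overlap. These shares are the background for every count below: a gene list with about 27.6% higher and 28.2% lower is like the genes at large. For counts of genes with 0 UMIs in the gate, the background is 14362 of all 27297 gene rows. A gene with 0 UMIs in the gate passes the low-count filter only through unsorted pools, so it could not have been called higher. The median log2 ratio of summed UMIs over all 11343 genes that had one was 0.06. Without TMM scaling the median fitted log2 fold change moved to -0.17, against -0.03 with it, and the calls to 1576 higher and 2604 lower.

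A list of 23 erythroid genes summed to 2006, 2520.0 and 3019.5 CPM in the gate, against 13496, 17117 and 20061 CPM in unsorted pools. Of thinned unsorted cells, 1107 of 2417 had 10 or more UMIs of this list, against 0 of 1047 gate cells, which allows a share of up to 0.287%. Genes were also compared with the 1310 unsorted cells (54.2%) below that cut, a comparison chosen after seeing the data and limited in both groups to cells of 1000 or more UMIs. The cut is a point on a range: 101 unsorted and 6 gate cells lay within 2 UMIs of it. In this second comparison, over 5477 genes, 1055 (19.3%) were higher and 1164 (21.3%) lower in the gate. The erythroid genes that set the cut are not read there one by one, but counts over 2 other lists may include some of them. Without TMM scaling 875 were higher and 1272 lower, and without gate plate 10 853 were higher and 738 lower.

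Another comparison, this time by surface protein, used an index-sort range: 583 unsorted cells in 15 pools had CD34 of 100 or more and FcgR under 600, values chosen here to stand for CD34+ and FcgR(low). No gate well has index-sort values, so this range was set on unsorted cells alone. Over 2279 genes, 424 (18.6%) were higher and 505 (22.2%) lower in the gate, and without TMM scaling 319 higher and 605 lower. The 3 comparisons share the same 6 gate pools, so their values are given side by side and none is support for another.

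Irf8 had the largest log2 fold change of the 9 dendritic cell genes tested. It had 1281, 1324, 1258, 1269, 1112 and 1239 CPM in gate pools 1 to 6, against 170.1, 219 and 287 CPM in unsorted pools. All gate pools were above all unsorted pools, and the gate pools lay close together. The log2 fold change was 2.53 ± 0.09 (SE), adjusted p = 2.55e-19, against 1.23 ± 0.09 over unsorted cells with few erythroid UMIs and 1.34 ± 0.17 over unsorted cells in the surface range. Irf8 was detected in 63.5% of gate cells and 16.8% of unsorted cells (83.4% and 26.8% before thinning) at equal depth, and in 1.99% of the erythroid-rich cells.

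Cst3, which encodes the protease inhibitor cystatin C and is abundant in dendritic cells, had 1712, 2344 and 2518 CPM in the gate, against 625, 802 and 1096 CPM in unsorted pools, and its log2 fold change was 1.48 ± 0.10 (SE), adjusted p = 4.78e-13. It remained higher beside unsorted cells with few erythroid UMIs (0.52, adjusted p = 0.000124). Tcf4, the factor of plasmacytoid dendritic cells, had 115, 132 and 152 CPM in the gate, against 25.7, 49.6 and 77.4 CPM in unsorted pools, a log2 fold change of 1.41 ± 0.16 (SE), adjusted p = 2.1e-08, and the value beside cells with few erythroid UMIs was the same to 2 decimals, 1.41 (adjusted p = 1.41e-07). Plac8, a gene of plasmacytoid dendritic cells and myeloid progenitors, had 319, 313, 942, 703, 171 and 189.9 CPM in gate pools 1 to 6. It was high in pools 3 and 4 of plate 11, and without SB20, in pools 5 and 6 alone, its difference from unsorted pools was 0.47 (adjusted p = 0.361).

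Of the 20 genes of the dendritic list, 9 passed the low-count filter, of which 6 were higher and 1 lower in the gate. Besides Irf8, Cst3, Tcf4 and Plac8, the higher ones were Bst2, a surface antigen of plasmacytoid dendritic cells (0.64), and Ctsh, a lysosomal protease (1.05). Id2, the inhibitor of E proteins that conventional dendritic cells use, was lower (-0.74, adjusted p = 0.0476), but it did not pass in pools 1 and 2 alone or without gate pool 1, 2, 3, 4 or 6. Markers of mature dendritic cells were at or near 0: Clec9a, Cd209a, Irf4 and Zbtb46 had 0 UMIs in the gate, Xcr1 had 1, Siglech had 3 and Batf3 had 5. Genes at 0 were 4 of 20 in this list, against 14362 of 27297 gene rows at large. The list's median log2 ratio over 14 genes with a ratio was 0.76, against 0.06 over all genes. Beside unsorted cells with few erythroid UMIs 3 of 8 tested members were higher and 1 lower, and the median was -0.02, against -0.01 over all genes.

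Counted per cell, 76.9% ± 2.81 of gate cells and 27.0% ± 4.47 of unsorted cells (mean ± SD over 6 and 16 pools) had 3 or more UMIs of the dendritic list (adjusted p = 9.38e-05, exact two-sided permutation test over pools). This p and the others given for shares of cells are adjusted over 14 lists. The smallest p this permutation test could give before adjustment is 2.68e-05, and its adjusted value depends on how many lists reach it. No gate pool overlapped an unsorted pool: the lowest gate pool had 71.4% and the highest unsorted pool 34.2%. The list summed to 4384, 4738 and 5021 CPM in the gate, against 1364, 1612 and 2052 CPM in unsorted pools, and Cst3 and Irf8 gave most of its UMIs in the gate. Cst3 was detected in 83.7% of gate cells and 51.2% of unsorted cells (95.8% and 79.0% before thinning). In erythroid-rich cells its share was 28.3%, so UMIs of this list need not mark a dendritic cell.

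**Figure D2:**
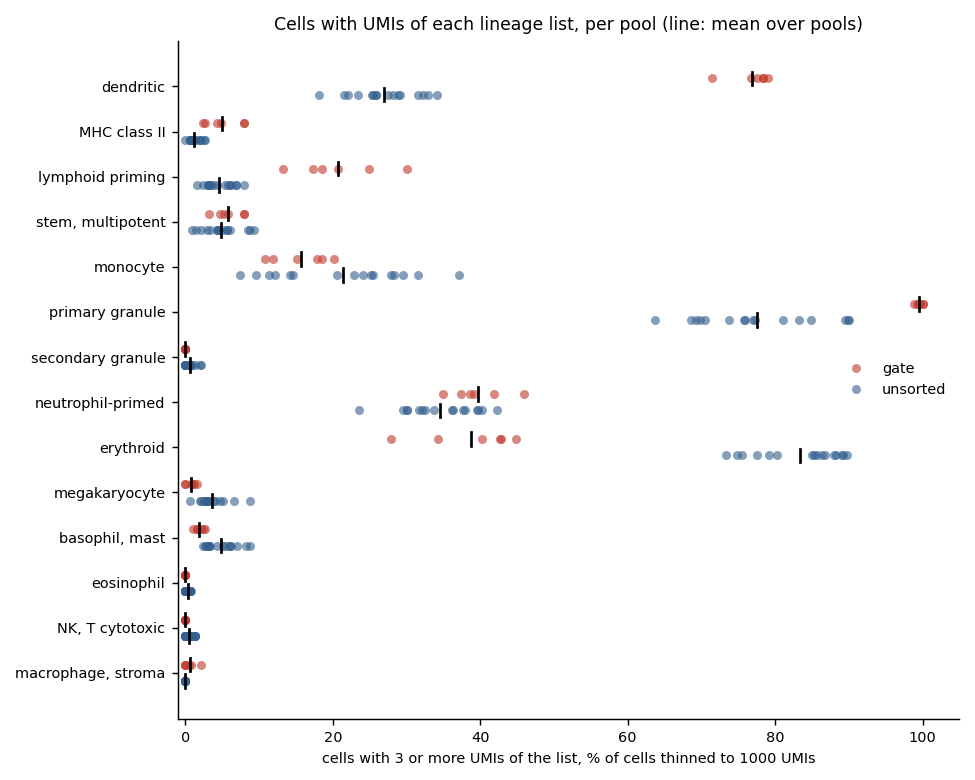
Share of cells with 3 or more UMIs of each of 14 lineage lists (x axis, % of cells thinned to 1000 UMIs), per pool; gate pools in the upper row of each list, unsorted pools in the lower row, and black lines the mean over pools. Dendritic, lymphoid priming and primary granule shares are higher in every gate pool than in any unsorted pool, and the erythroid share is lower in every gate pool.

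Of 6 tested MHC class II genes 2 were higher, 2 were lower and 2 did not pass. H2-DMa, a chain of the peptide-exchange factor DM, had 449, 612 and 717 CPM in the gate, against 95.7, 111 and 197 CPM in unsorted pools, a log2 fold change of 2.30 ± 0.11 (SE), adjusted p = 1.73e-16. The joined row of H2-DMb1 and H2-DMb2, its partner chains, had 93.1, 126 and 137 CPM in the gate, against 20.3, 31.8 and 44.8 CPM in unsorted pools (1.92, adjusted p = 3.99e-13). For both, no gate pool overlapped an unsorted pool. The antigen-presenting chain H2-Aa and the invariant chain Cd74 were lower, with calls that several settings ended.

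Cd74 had 8.97, 34.2, 70.5, 28.1, 38.9 and 4.36 CPM in gate pools 1 to 6, against 8.15, 58.8 and 151 CPM in unsorted pools, and H2-Aa had 4.02, 14.7 and 33.1 CPM in the gate, against 6.11, 28.5 and 81.0 CPM in unsorted pools. Both groups overlap. The log2 fold changes were -1.28 ± 0.47 (SE), adjusted p = 0.0229, for Cd74 and -1.10 ± 0.44 (SE), adjusted p = 0.0362, for H2-Aa, and neither passed in pools 1 and 2 alone (adjusted p = 0.065 and 0.136). Leaving out gate pool 1 or 6 ended both calls, pool 3 or 4 ended that of H2-Aa, and summing per plate ended both (leaving out a pool gave adjusted p up to 0.0712 and 0.094). Beside unsorted cells in the surface range the differences were -3.28 (adjusted p = 3.36e-05) and -3.19 (adjusted p = 1.29e-05). H2-Ab1 (0.46, adjusted p = 0.134) and H2-Eb1 (-1.28, adjusted p = 0.115) did not pass. Of 10 list genes 9 had a row. Beside cells with few erythroid UMIs 2 of 5 tested members were higher and 2 lower. By share, 4.99% ± 2.47 of gate cells and 1.19% ± 0.783 of unsorted cells had 3 or more UMIs of the list (adjusted p = 0.000313, exact permutation test), and with 5 or more UMIs the difference was -0.406 percentage points.

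Of the tested genes of early lymphoid progenitors, 9 of 12 were higher in the gate. Dntt, the terminal transferase that adds bases at antigen-receptor joints, had 93.3, 88.4, 229, 92.4, 77.8 and 82.9 CPM in gate pools 1 to 6, against 0, 14.1 and 34.8 CPM in unsorted pools. Pool 3 was the highest, and all gate pools were above all unsorted pools. Its log2 fold change was 2.96 ± 0.33 (SE), adjusted p = 1.01e-08, and beside unsorted cells with few erythroid UMIs 2.09 ± 0.32.

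Satb1, a chromatin organizer of lymphoid progenitors, had 126, 165 and 221 CPM in the gate, against 9.14, 18.7 and 32.8 CPM in unsorted pools, a log2 fold change of 3.17 ± 0.20 (SE), adjusted p = 5.94e-14. Lsp1, an actin-binding protein of leukocytes, had 276, 316 and 352 CPM in the gate, against 15.3, 43.6 and 67.6 CPM in unsorted pools (2.94 ± 0.17). Sox4, a factor of early B-cell development, had 276, 415 and 466 CPM in the gate, against 69.7, 80.2 and 118 CPM in unsorted pools (2.13 ± 0.12). None of these 3 overlapped between the groups, and beside unsorted cells with few erythroid UMIs the differences were 2.06, 1.84 and 1.31.

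Of 27 lymphoid priming genes 26 had a row and 12 were tested, of which 9 were higher and 2 lower, with a median log2 ratio of 0.69 over 20 genes. The other higher members were Cd79b, a signalling chain of the B-cell receptor (1.78), the joined row of Mef2c (1.61), Gimap6 (1.44), Il2rg (0.65) and Rhoh (0.65). Ikzf1 (-0.55) and Bcl11a (-0.81), factors of lymphoid development, were lower, but Ikzf1 did not pass in pools 1 and 2 alone (adjusted p = 0.0553) and Bcl11a did not without gate pool 1, 2 or 6. Genes that define committed lymphoid cells were at or near 0: Rag2, Pax5, Cd79a and the joined Ebf row had 0 UMIs in the gate, and Il7r had 1. Rows at 0 were 4 of 26 in this list, against 14362 of 27297 at large. Beside cells with few erythroid UMIs 7 of 9 tested members were higher and 0 lower.

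Per cell, 20.7% ± 5.94 of gate cells and 4.58% ± 1.86 of unsorted cells had 3 or more UMIs of this list (adjusted p = 9.38e-05, exact permutation test). Dntt was detected in 7.61% of gate cells and 1.61% of unsorted cells (13.2% and 2.93% before thinning), with 3.78% and 16.4% as the lowest and highest gate pool. Among gate cells with an Irf8 UMI 7.10% also had a Dntt UMI, and among gate cells without one 8.31% had. In erythroid-rich unsorted cells the share with a Dntt UMI was 0.723%.

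Of 16 stem and multipotent genes only 3 were tested. Hoxa7, a homeobox factor of stem and progenitor cells, had 74.2, 93.0 and 181 CPM in the gate, against 10.9, 17.6 and 29.1 CPM in unsorted pools (2.41 ± 0.18), and Gpr56, an adhesion receptor of stem cells, had 460.4, 584 and 665 CPM in the gate, against 210.5, 285 and 358 CPM in unsorted pools (1.02 ± 0.10). Mllt3, a regulator of stem cell maintenance, was lower (-2.73 ± 0.34). Gpr56 was higher beside unsorted cells with few erythroid UMIs (0.62 ± 0.11) and lower beside unsorted cells in the surface range (-0.45 ± 0.17, adjusted p = 0.0342). The share of cells with 3 or more UMIs of the list was 5.80% in the gate and 4.81% in unsorted pools (adjusted p = 0.389, exact permutation test). With 2 or more UMIs it passed, at 19.4% and 12.7% (adjusted p = 0.00821, exact permutation test), and so it did in cells that were not thinned, at 28.9% and 21.0% (adjusted p = 0.0315).

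For the proteases of neutrophil primary granules the difference depended on which unsorted cells were taken. Mpo encodes myeloperoxidase, and Ctsg, Prtn3 and Elane encode the serine proteases cathepsin G, proteinase 3 and neutrophil elastase. The promoters of these 4 genes are shown because Elane differed from the other 3 in the gate although Prtn3 and Elane are neighbours, their windows lying 6645 bases apart. Each line holds the 250 bases before the start of the gene from RefSeq (GRCm38.p6), 5′ to 3′ on the gene's strand, with matches to GAGGAA, the core bound by the myeloid factor PU.1, in capitals. The windows are Mpo at chr11:87793534-87793783 on the + strand, Ctsg at chr14:56102575-56102824 on the - strand, Prtn3 at chr10:79879417-79879666 on the + strand and Elane at chr10:79886062-79886311 on the + strand.
Mpo: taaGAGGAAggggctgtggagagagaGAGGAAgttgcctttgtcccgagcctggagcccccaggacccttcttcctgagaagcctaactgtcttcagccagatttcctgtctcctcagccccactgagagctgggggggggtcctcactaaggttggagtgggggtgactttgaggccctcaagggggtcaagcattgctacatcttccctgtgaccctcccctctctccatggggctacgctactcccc
Ctsg: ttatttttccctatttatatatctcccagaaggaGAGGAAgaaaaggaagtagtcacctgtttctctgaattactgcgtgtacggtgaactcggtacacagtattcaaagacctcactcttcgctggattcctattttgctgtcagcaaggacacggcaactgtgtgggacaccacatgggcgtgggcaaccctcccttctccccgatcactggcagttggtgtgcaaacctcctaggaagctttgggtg
Prtn3: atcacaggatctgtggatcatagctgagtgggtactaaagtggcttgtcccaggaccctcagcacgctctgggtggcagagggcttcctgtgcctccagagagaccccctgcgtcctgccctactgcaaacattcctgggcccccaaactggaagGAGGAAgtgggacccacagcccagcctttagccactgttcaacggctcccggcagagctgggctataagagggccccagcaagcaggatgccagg
Elane: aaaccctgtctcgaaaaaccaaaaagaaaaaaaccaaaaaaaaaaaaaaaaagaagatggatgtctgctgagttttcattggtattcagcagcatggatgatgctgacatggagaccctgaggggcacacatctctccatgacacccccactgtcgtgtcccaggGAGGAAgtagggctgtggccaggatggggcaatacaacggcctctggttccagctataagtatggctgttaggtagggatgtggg

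GAGGAA or its reverse complement TTCCTC was found in 4 of 4 windows and in 23.3% of 32851 promoter windows of the same length. The C/EBP core TTGCNNAA was found in 0 of 4 (9.56% of all windows), the GATA core GATAAG in 0 of 4 (6.55%) and the Myb core AACNGC in 3 of 4 (29.9%), each on both strands, where N is any base. These motifs were chosen after the promoters had been looked at, and a match is a description of letters, not of binding.

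Mpo had 12201, 12167, 8867, 11805, 10181 and 12541 CPM in gate pools 1 to 6, against 5066, 6868 and 9897 CPM in unsorted pools. Elane had 949, 918, 640.4, 654, 838 and 1617 CPM, against 2229.6, 3395 and 5824 CPM. Elane was below every unsorted pool in every gate pool, with pool 6 the highest of the gate, and Mpo overlapped. The log2 fold changes were 0.66 ± 0.12 (SE), adjusted p = 3.39e-05, for Mpo and -1.88 ± 0.19 (SE), adjusted p = 1.72e-09, for Elane. Ctsg (0.57 ± 0.12, adjusted p = 0.000162) was higher. Prtn3 passed narrowly (0.27 ± 0.11, adjusted p = 0.0438), but not without gate pool 1, 2, 4, 5 or 6 (adjusted p up to 0.192), in pools 1 and 2 alone (0.308) or without TMM scaling (0.287).

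Beside the unsorted cells with few erythroid UMIs all 4 were lower in the gate. Mpo was -0.55 ± 0.09 (adjusted p = 1.87e-05), with 11883 CPM in the median gate pool and 16178 in the median unsorted pool. Ctsg was -0.72 ± 0.09, Prtn3 -1.02 ± 0.09 and Elane -3.19 ± 0.17, and no gate pool overlapped an unsorted pool for any of them. So the direction for Mpo, Ctsg and Prtn3 turns with the unsorted cells taken, and that of Elane does not.

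Beside unsorted cells in the surface range, Mpo (0.71 ± 0.14), Ctsg (0.79 ± 0.17) and Prtn3 (0.44 ± 0.13) were higher in the gate, while Elane (-0.75 ± 0.38, adjusted p = 0.116) did not pass. In all 3 comparisons the difference for Elane lay below those of the other 3 proteases. Mpo was detected in 99.7% of gate cells and 83.3% of unsorted cells (99.6% and 95.8% before thinning) thinned to equal depth, and Elane in 35.2% of gate cells and 50.3% of unsorted cells (50.5% and 66.1% before thinning); in erythroid-rich unsorted cells the shares were 66.1% and 18.2%. Over the cells of all pools, Elane was detected in 33.8% of gate cells with an Irf8 UMI and 37.9% of gate cells without one, and in 76.8% and 44.9% of unsorted cells. Unsorted pools ran from 65.4% to 92.9% and from 35.7% to 61.3%. Irf8 was detected in only 1.99% of erythroid-rich cells, so these lie mostly among unsorted cells without an Irf8 UMI. Their part in the difference was not tested.

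**Figure D3:**
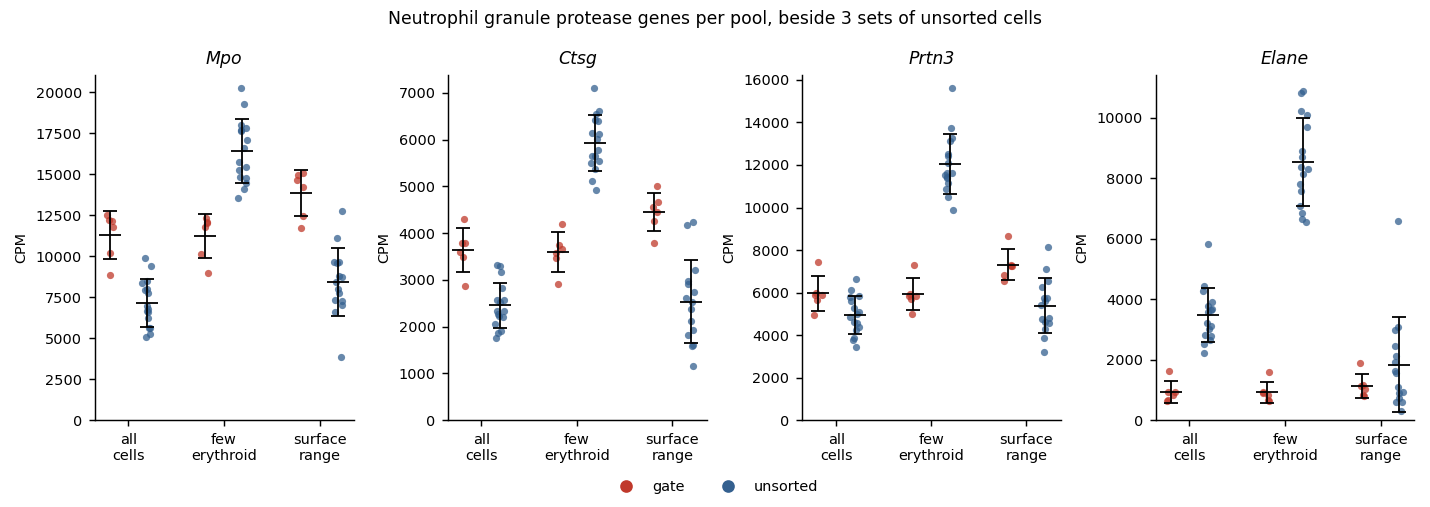
Level in CPM (y axis, linear) of 4 granule genes in each pool; red points are gate pools and blue points unsorted pools, drawn in pairs for all unsorted cells, those with few erythroid UMIs and those in the surface range, each pair scaled within its own fit. Bars are mean and SD. Mpo and Ctsg gate pools lie above most unsorted pools in the first and last pair, Prtn3 gate pools overlap the unsorted pools more in the first pair and lie above most of them in the last, and all 3 lie below all unsorted pools in the middle pair. Elane gate pools lie below all unsorted pools in the first 2 pairs.

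All 9 primary granule genes were tested, with 4 higher and 4 lower, and a median log2 ratio of -0.06. Nkg7, a membrane protein of cytotoxic and myeloid granules, had 25.3, 38.5 and 81.8 CPM in the gate, against 48.8, 244 and 564 CPM in unsorted pools (-2.46 ± 0.51). Ms4a3, a gene of granulocyte and monocyte progenitors, was also lower (-2.13 ± 0.44), as was Srgn, the granule proteoglycan serglycin (-0.29), though not without gate pool 2 (adjusted p = 0.0609). The joined row of Serpinb1c and Serpinb1a, inhibitors of the granule proteases, was higher (1.61 ± 0.41), but it was high in pools 3 and 4 of plate 11 and did not pass in pools 1 and 2 alone (adjusted p = 0.32). Beside cells with few erythroid UMIs 8 of 9 were lower, 0 higher, and the median was -1.24. Almost every gate cell carried granule UMIs: 99.5% ± 0.466 of gate cells and 77.5% ± 8.25 of unsorted cells had 3 or more (adjusted p = 9.38e-05, exact permutation test).

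Both tested genes of the secondary granules of neutrophils were lower, but both had 0 UMIs in the gate and so could not have come out higher. Fcnb, the ficolin of maturing neutrophils, had 0 UMIs in the gate and 211 in unsorted pools, which is at least 18.6-fold lower, taking 3 counts over the gate as the floor. 1100001G20Rik likewise had 0 UMIs in the gate and 192 in unsorted pools, at least 16.9-fold lower. Of 13 secondary granule genes 8 had 0 UMIs in the gate, not far from the share at large, 14362 of 27297 gene rows. Ltf, Ngp, S100a9 and Chi3l3 were among the 8, and 2 of the 13 genes were tested. The list's median log2 ratio was -1.62, and 0% of gate cells and 0.667% of unsorted cells had 3 or more UMIs of the list (adjusted p = 0.0217, exact permutation test). That call was lost with SB20 gate pools only (adjusted p = 0.091, exact permutation test), with SB25 gate pools only (0.384), without plate 10 (0.0728) and without plate 11 (0.0809), and with 5 or more UMIs. Of the factors of the neutrophil lineage, Cebpe had 3.59, 5.00 and 7.78 CPM in the gate, against 30.8, 52.5 and 139 CPM in unsorted pools (-3.48 ± 0.40), and Gfi1 had 21.8, 23.7 and 26.1 CPM in the gate, against 28.8, 44.6 and 56.0 CPM in unsorted pools (-0.83 ± 0.17).

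All 14 neutrophil-primed genes were tested, with 4 higher and 4 lower and a median log2 ratio of -0.03. Emb, a carrier of monocarboxylate transporters, had 783, 1034 and 1175 CPM in the gate, against 173, 219 and 347 CPM in unsorted pools (2.10 ± 0.13). Clec12a, an inhibitory lectin receptor of myeloid cells, was higher (2.20 ± 0.40), but with 23.3, 20.1, 135, 124, 29.2 and 24.0 CPM in gate pools 1 to 6 it was high on plate 11 and did not pass in pools 1 and 2 alone (adjusted p = 0.204). Trem3, a receptor of granulocytes and macrophages, was lower (-1.61 ± 0.25). Beside cells with few erythroid UMIs 10 were lower and 1, Emb, was higher (0.82), with a median of -1.29. By share, 39.6% ± 3.84 of gate cells and 34.6% ± 5.03 of unsorted cells had 3 or more UMIs of the list (adjusted p = 0.0446, exact permutation test), and with 5 or more UMIs the difference was -11.9 percentage points. The call at 3 UMIs was lost with SB20 gate pools only (adjusted p = 0.242, exact permutation test), with SB25 gate pools only (0.102), without plate 10 (0.0661) and without plate 11 (0.0766).

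Monocyte genes moved in both directions. Ly6c2, the Ly6C antigen of monocytes, had 298, 155, 79.0, 120.5, 142 and 212 CPM in gate pools 1 to 6, against 161, 769 and 1432 CPM in unsorted pools. Its log2 fold change was -2.05 ± 0.43 (SE), adjusted p = 0.000183; near-identical copies in its family could have shared reads, so its level is uncertain, and it did not pass in pools 1 and 2 alone (adjusted p = 0.0554). The lysosomal genes Cd68 (1.89 ± 0.19) and Ctss, cathepsin S (1.78 ± 0.21), and the membrane gene Ms4a6c (1.88 ± 0.25) were higher, with no overlap of pools. Beside cells with few erythroid UMIs these 3 remained higher, by 0.62, 0.55 and 0.57.

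Of 21 monocyte genes 11 were tested, with 6 higher and 1 lower and a median log2 ratio of 1.12. Beside cells with few erythroid UMIs 4 of 10 were higher and 4 lower, with a median of -0.19. F13a1, coagulation factor XIII (0.83), was among the higher ones, though not in pools 1 and 2 alone (adjusted p = 0.191), and was lower beside cells with few erythroid UMIs (-0.43, adjusted p = 0.0451). Psap (1.29) and Ly86 (1.07) completed the 6. Of the 2885927 UMIs of the gate, the receptor genes of mature monocytes Cx3cr1, Ccr2 and Fcgr1 had 25, 39 and 10. These are counts in the gate alone, not a comparison with unsorted pools. Ly6c2 was detected in 9.30% of gate cells and 27.6% of unsorted cells (16.2% and 37.7% before thinning) and in 5.06% of erythroid-rich cells, and shares of cells with 3 or more UMIs of the list were 15.7% in the gate and 21.4% in unsorted pools (adjusted p = 0.155, exact permutation test). With 5 or more UMIs the shares were 3.05% and 11.6% (adjusted p = 0.00948, exact permutation test), which passed. With 2 or more they were 32.8% and 30.0% (adjusted p = 0.46), so the direction turned with the number of UMIs asked for.

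**Figure D4:**
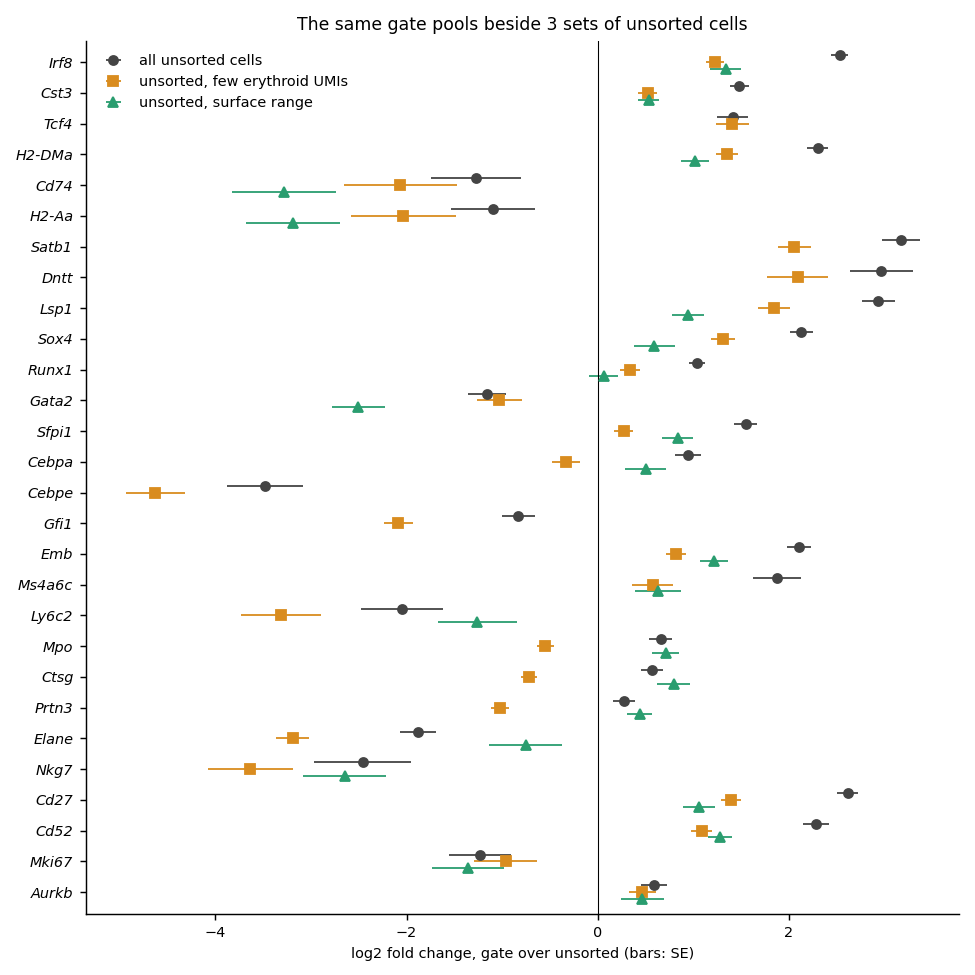
Log2 fold change of gate over unsorted (x axis; bars are SE) for 28 genes, with black circles for all unsorted cells, orange squares for unsorted cells with few erythroid UMIs and green triangles for unsorted cells in the surface range; a missing marker means that the gene was not tested. Irf8, Satb1, Dntt and H2-DMa are positive wherever tested, Elane, Nkg7 and Cebpe are negative wherever tested, and Mpo, Ctsg, Prtn3 and Cebpa have both signs.

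Erythroid genes were nearly absent from the gate. Car1, carbonic anhydrase 1, had 1 UMI in the gate and 32114 in unsorted pools, a ratio of 0.000118 with a 95% exact binomial interval of 2.99e-06 to 0.000657, which covers counting error only. Klf1, the erythroid factor, had 9 UMIs in the gate and 6606 in unsorted pools. Ermap, an erythroid membrane protein, had 0 UMIs in the gate and 5383 in unsorted pools, at least 474-fold lower. Sphk1 (at least 357-fold) and Cldn13 (at least 193-fold) also had 0. Gata1, the factor that directs the erythroid and megakaryocyte programme, had 11 UMIs, all in gate pool 4 and spread over 11 cells at 1 UMI each, so the other 5 gate pools had 0, against 198, 249 and 280.3 CPM in unsorted pools.

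All 22 tested genes of the erythroid list were lower, with a median log2 ratio of -6.57. The 8 genes of the list with 0 UMIs in the gate could not have come out higher. Of the UMIs of the list that the gate did hold, most were of Atpif1 (4135 UMIs) and Prdx2 (1640 UMIs), a mitochondrial ATPase inhibitor and a peroxiredoxin, which many cells express. With these counted, 38.8% ± 6.49 of gate cells still had 3 or more UMIs of the list, against 83.4% ± 5.67 of unsorted cells (adjusted p = 9.38e-05, exact permutation test). Car1 was detected in 0.101% of gate cells and 54.5% of unsorted cells.

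Heme synthesis and globin genes were lower too. Of 11 tested heme genes 10 were lower, with a median log2 ratio of -1.56 over the list, led by Cpox, coproporphyrinogen oxidase, with 24.0, 44.3 and 50.6 CPM in the gate, against 356, 556 and 702 CPM in unsorted pools (-3.71 ± 0.16). Slc25a38 (-2.35) and Ppox (-1.59) had smaller differences. Beside unsorted cells with few erythroid UMIs 3 of 9 heme genes were lower, against 21.3% of all genes tested there. Those cells were chosen by their erythroid UMIs, so this count may partly follow from the choice of cells. Both tested globins were lower, Hba-a2 (-5.95 ± 0.52) and Hbb-b1 (-1.96 ± 0.37); globins have near-identical copies that could have shared reads, so these levels are uncertain.

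Megakaryocyte genes were mostly lower, with 6 of 10 tested lower and 2 higher and a median log2 ratio of -1.31. Pf4, platelet factor 4, had 0, 1.41 and 30.5 CPM in the gate, against 4.07, 39.9 and 119 CPM in unsorted pools (-2.55 ± 0.77), and it did not pass in pools 1 and 2 alone (adjusted p = 0.227). The joined row of Itga2b, the CD41 antigen, was lower (-2.16 ± 0.41), as were Serpine2, a protease inhibitor (-2.70 ± 0.40), and the thrombin receptor F2r (-2.44 ± 0.38). Beside the surface range Pf4 and Itga2b had log2 fold changes of -4.91 and -3.98. By share, 0.777% ± 0.661 of gate cells and 3.62% ± 1.97 of unsorted cells had 3 or more UMIs of the list (adjusted p = 0.000482, exact permutation test).

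Of 6 tested basophil and mast cell genes 3 were lower and 2 higher. Both tested eosinophil genes, Prg2 and Epx, were lower, but they had 0 UMIs in the gate and could not have come out higher. Hdc, histidine decarboxylase, had 8.03, 21.7 and 31.0 CPM in the gate, against 61.1, 101 and 153 CPM in unsorted pools (-2.15 ± 0.23). Gata2, a factor of stem, mast and megakaryocyte progenitors, was lower (-1.16 ± 0.20), also beside the surface range (-2.50 ± 0.28). Prss34, a mast cell and basophil protease, had 0 UMIs in the gate and 316 in unsorted pools (at least 27.8-fold lower), and its unsorted pools ran from 0 to 326 CPM. The eosinophil granule genes Prg2 and Epx had 0 UMIs in the gate, against 698 (at least 61.4-fold) and 240 (at least 21.1-fold) in unsorted pools. Prss34, Prg2 and Epx did not pass in pools 1 and 2 alone. Ifitm1, an interferon-induced membrane protein on the basophil list, was higher (1.39 ± 0.24). By share, 1.90% ± 0.599 of gate cells and 4.83% ± 2.03 of unsorted cells had 3 or more UMIs of the basophil and mast list (adjusted p = 0.000313, exact permutation test), and 0% and 0.287% of the eosinophil list (adjusted p = 0.155). With 2 or more UMIs the basophil and mast shares were 10.3% in the gate and 11.3% in unsorted pools, and the call was lost (adjusted p = 0.429, exact permutation test). In cells that were not thinned the eosinophil share passed, with 0% and 0.41% (adjusted p = 0.0315, exact permutation test).

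Markers of other cells the gate could hold were also counted. Of 13 natural killer and T cell genes 8 had 0 UMIs in the gate, not far from the share at large, 14362 of 27297 gene rows. Gzmb, Ncr1, Prf1 and Cd8a were among the 8. Ccl5, a chemokine, was the only gene tested (-1.97 ± 0.72, adjusted p = 0.0217), not passing in pools 1 and 2 alone or without gate pool 2 or 5. The list summed to 11.7, 18.9 and 28.1 CPM in the gate and 11.8, 38.8 and 171 CPM in unsorted pools, and 0% of gate cells and 0.549% of unsorted cells had 3 or more of its UMIs (adjusted p = 0.0585, exact permutation test). In cells that were not thinned the shares were 0.0877% and 1.29% (adjusted p = 9.38e-05, exact permutation test), which passed. Of 13 macrophage and stroma genes none was tested. Col1a1, a collagen of stromal cells, had 108 UMIs in 77 cells of gate pool 5 and 16 UMIs in 16 cells of pool 6, 0 in the other 4 gate pools and 1 in all unsorted pools. Hmox1, heme oxygenase of macrophages, had 37 UMIs in the gate and 49 in unsorted pools, so per UMI of the group it was higher in the gate. The median log2 ratio of the macrophage and stroma list was 1.32 over 9 genes with a ratio, against 0.06 over all genes. The list summed to 17.9, 48.2 and 289.8 CPM in the gate, against 6.11, 14.2 and 36.0 CPM in unsorted pools, and 0.572% of gate cells and 0% of unsorted cells had 3 or more of its UMIs (adjusted p = 0.0404, exact permutation test), a call lost without gate plate 11 and in SB20 pools alone. Pools 5 and 6 are 1 plate and 1 sequencing batch, and the part of either in the Col1a1 count was not tested.

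Among transcription factors of the lineages 25 of 30 were tested, with 11 higher and 10 lower, and beside cells with few erythroid UMIs 8 of 25 were higher and 9 lower. Gata1, Klf1, Gfi1b and Zfpm1 are also on the erythroid list that set that cut. The count lower beside those cells may therefore partly follow from the choice of cells. Sfpi1, which encodes PU.1, had 403, 451 and 543 CPM in the gate, against 94.9, 154 and 234 CPM in unsorted pools (1.55 ± 0.12), without overlap, and Runx1, a factor of definitive blood cells, had 285, 296 and 352 CPM in the gate, against 112, 150.2 and 175 CPM in unsorted pools (1.04 ± 0.09). Cebpa was higher by 0.94 ± 0.14. Beside unsorted cells with few erythroid UMIs these differences were 0.27 (adjusted p = 0.0278), 0.33 (adjusted p = 0.0109) and -0.33 (adjusted p = 0.0737), so that of Cebpa changed sign and did not pass. Gfi1b, the erythroid and megakaryocyte paralogue of Gfi1, was lower (-4.48 ± 0.22), as was Zfpm1, the Gata1 cofactor (-3.74 ± 0.19). Myb (-0.01), Myc (0.04) and Lmo2 (0.04) did not pass.

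Of 24 cytokine receptor genes 14 were tested, with 9 higher and 3 lower, and beside cells with few erythroid UMIs 3 of 12 were higher and 5 lower. Epor is also on the erythroid list that set that cut, so the count lower beside those cells may include it for that reason. Il6st, the gp130 chain of interleukin-6 family receptors, had 89.7, 121 and 149 CPM in the gate, against 2.49, 17.0 and 29.1 CPM in unsorted pools (2.74 ± 0.20), and Il3ra, the interleukin-3 receptor chain CD123, was higher by 2.31 ± 0.26. The erythropoietin receptor Epor had 3 UMIs in the gate and 2086 in unsorted pools, a ratio of 0.00545 with a 95% exact binomial interval of 0.00112 to 0.0159. Il1rl1, the interleukin-33 receptor, had 0 UMIs in the gate and 300 in unsorted pools, at least 26.4-fold lower. Csf2ra (0.16) and Csf3r (0.27), receptors of granulocyte growth factors, did not pass, and both were lower beside cells with few erythroid UMIs (-0.92 and -1.08).

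Adhesion and surface genes were higher in 9 of 13 tested, lower in 3, with a median log2 ratio of 1.46. Cd27, a co-stimulatory receptor of early lymphoid and multipotent progenitors, had 360.1, 433 and 530.5 CPM in the gate, against 44.3, 73.1 and 91.9 CPM in unsorted pools (2.61 ± 0.11), and Cd52, a glycopeptide of leukocytes, had 742, 1058 and 1205 CPM in the gate, against 150.3, 191 and 344 CPM in unsorted pools (2.28 ± 0.14). Itgb7, an integrin chain, was higher by 1.86 ± 0.15. Cd53, a tetraspanin, was higher by 2.91 ± 0.44, with its highest gate pools on plate 11. Cd27, Cd52 and Itgb7 remained higher beside both other sets of unsorted cells wherever tested, Cd27 by 1.39 and 1.06.

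Of 27 S-phase genes 13 were lower and 5 higher, with a median log2 ratio of -0.28, and beside cells with few erythroid UMIs 10 were lower and 5 higher. The joined row of Cdc6, which loads the replicative helicase, had 4.02, 20.7 and 31.0 CPM in the gate, against 40.7, 86.4 and 158 CPM in unsorted pools (-2.11 ± 0.32), and Rrm1, a ribonucleotide reductase chain, was lower (-1.35 ± 0.27). Tipin (-0.83), a replication fork protein, was lower but lost its call when gate pool 1 or 6 was left out. Of 20 G2 and M genes 7 were higher and 2 lower, with a median of 0.07; beside cells with few erythroid UMIs 8 of 18 were higher and 1 lower. Kif23 (1.05 ± 0.16) and Aurkb (0.59 ± 0.14), which act in cell division, were higher, and Mki67 (-1.23 ± 0.33) and the joined row of Hmmr (-1.24) were lower. In pools 1 and 2 alone, Aurkb, Hmmr and Tipin did not pass.

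Of 10 tested interferon-stimulated genes 2 were higher and 2 lower, with a median log2 ratio of -0.05 over the list. Ifi27l2a had 67.7, 142 and 185 CPM in the gate, against 2.53, 13.0 and 37.2 CPM in unsorted pools (3.35 ± 0.24), and Ifitm3 was higher by 0.69 ± 0.19 but not in pools 1 and 2 alone (adjusted p = 0.178). Irf7 (-0.98) and Rtp4 (-1.13) were lower. Gate pools 3 and 4, whose label names poly(I:C), had 39.5 and 36.1 CPM of Irf7, within the range of the other gate pools. Of the immediate early genes, which respond quickly to handling, 2 were tested, and Ier2 was higher by 0.56 ± 0.15, not passing in pools 1 and 2 alone.

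Outside the lists, the 10 largest rises without overlap of pools were led by BC019819, with 25.3, 60.4 and 116 CPM in the gate, against 0, 2.12 and 7.41 CPM in unsorted pools (4.57 ± 0.38). Dhrs3, a retinal reductase, had 131, 168 and 221 CPM in the gate, against 11.1, 18.2 and 28.8 CPM in unsorted pools (3.20 ± 0.15). A joined row of immunoglobulin heavy chain sequences had 885, 1081 and 1302 CPM in the gate, against 87.3, 139 and 222 CPM in unsorted pools (2.99 ± 0.13), and its reads cannot be given to 1 gene. Gpr171 (3.08), the joined row of Ppfia4 (3.08), Serpinf1 (3.07), Tmsb10 (2.89), Plxnb2 (2.86), Lat2 (2.85) and Fam64a (2.78) completed them. All of these that were tested beside unsorted cells with few erythroid UMIs were higher there too, from 1.57 for Fam64a to 2.18 for Dhrs3; BC019819 was not tested.

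The 10 largest falls outside the lists were of genes with 0 or 1 UMI in the gate. Atp1b2, a sodium pump chain, had 0 UMIs in the gate against 3169 in unsorted pools (at least 279-fold lower), Pklr, the red cell pyruvate kinase, 0 against 1679 (at least 148-fold), and Rhag, the Rhesus-associated glycoprotein, 0 against 1286 (at least 113-fold). Slc38a5, Add2, Cited4, Prss50, Spnb1 and Slc25a21 also had 0, with bounds from 61.8-fold for Slc25a21 to 159.5-fold for Slc38a5. Mfsd2b had 1 UMI in the gate against 2007 in unsorted pools, a ratio of 0.00189 with a 95% exact binomial interval of 4.77e-05 to 0.0105.

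Sequencing batches and plates within the gate were compared next. Between SB25 (pools 5 and 6) and SB20 (pools 1 to 4), 36 of 6818 genes (0.528%) passed, of which 1, Col1a1, is in a list. On simulated data this comparison recovered only 43.9% of 2-fold differences, so a low count does not show that the batches are alike. The count of genes passing was 164 without plate 11 and 130 without plate 10, and 62, 7 and 12 without pool 3, 5 or 6. SB25 is 1 plate, so batch and plate cannot be told apart there. Prdx1, a peroxiredoxin, had 353, 384, 226, 398, 5.83 and 13.1 CPM in gate pools 1 to 6 and a log2 fold change of SB25 over SB20 of -5.16 ± 0.39 (adjusted p = 1.55e-05). It was lower in pools 5 and 6 than in every unsorted pool and higher in the other 4, so its difference from unsorted cells was -3.49 with pools 5 and 6 and 1.67 with pools 1 to 4. The ribosomal protein genes Rpl37a (2.70 ± 0.25) and Rpl39 (4.11 ± 0.51) were higher in SB25, as were Col1a1, the joined row of Acta2 (3.06) and Rps19-ps3 (2.75). Rpl11 (-2.49), Eif3m (-2.30), Ifi203 (-1.98) and Gstp1 (-1.94) were lower. Of these 10 genes, Rpl39, Rpl37a and Prdx1 kept their call without any single pool, and Col1a1 lost its call with DESeq2. The 2 unsorted batches, SB19 against SB17, differed in 89 of 7354 genes (1.21%), and Rpl37a (-1.22) was among them.

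Within SB20, plate 11 (pools 3 and 4) and plate 10 (pools 1 and 2) differed in 140 of 6818 genes (2.05%), a comparison chosen after seeing the data. On simulated data it recovered 40.2% of 2-fold differences. The count was 70, 52, 68 and 399 without pool 1, 2, 3 or 4, and 68 with DESeq2. The mitochondrial row Atpase6 had 217, 143, 7485, 4168, 1169 and 1163 CPM in gate pools 1 to 6, with a log2 fold change of plate 11 over plate 10 of 5.03 ± 0.29 (adjusted p = 5.89e-12). Mtrnr2l, another mitochondrial sequence, had 17.9, 14.1, 2567, 606, 17.5 and 10.9 CPM. Cd48, a surface marker of progenitors, had 1.79, 4.02, 84.6, 52.2, 21.4 and 13.1 CPM (4.50 ± 0.68), and Plac8 (1.40 ± 0.20), Clec12a (2.58 ± 0.37), Cd53 (1.80 ± 0.44) and the joined row of Serpinb1c and Serpinb1a (2.05 ± 0.38) were also higher on plate 11. Cmtm7 (-1.83 ± 0.21), Ly9 (-4.79 ± 0.80), Psap (-0.91) and Ly6c2 (-1.21) were lower there. Pools 3 and 4 had the lowest median depth of the gate, and the part of depth or of the mitochondrial share in these differences was not tested.

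**Figure D5:**
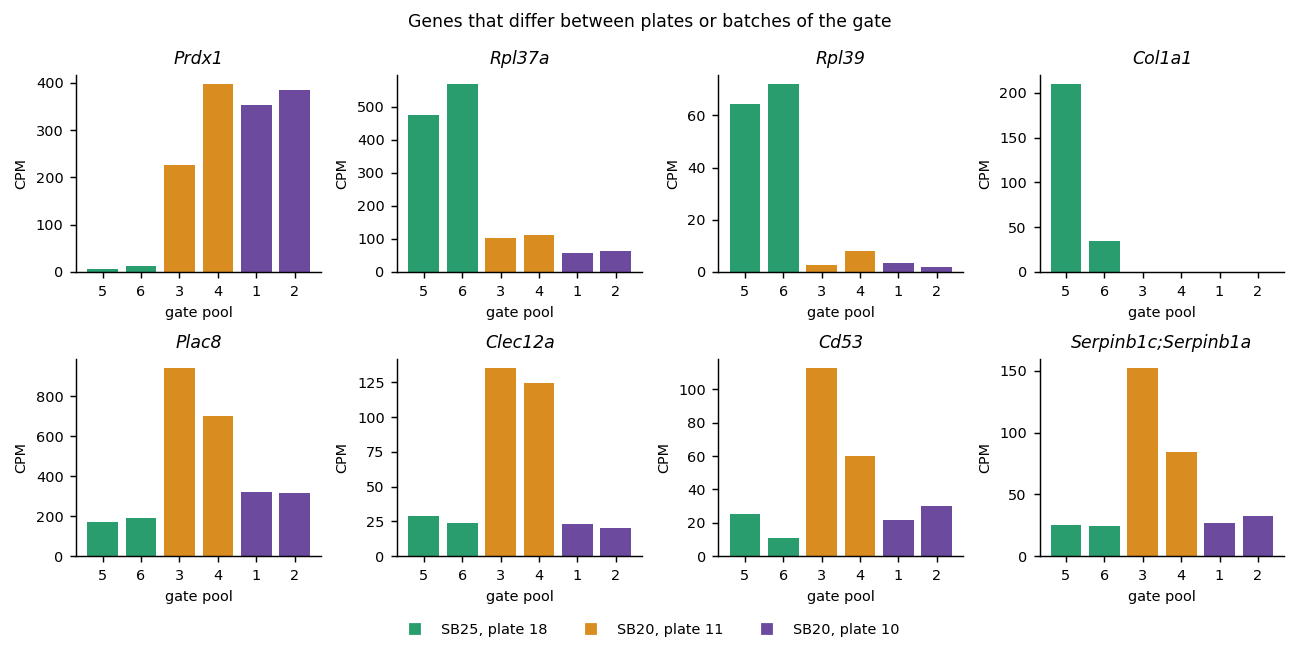
Level in CPM (y axis, linear, from 0) of 8 genes in each of the 6 gate pools, in the order SB25 plate 18 (pools 5 and 6, green), SB20 plate 11 (pools 3 and 4, orange) and SB20 plate 10 (pools 1 and 2, purple). Prdx1, Rpl37a, Rpl39 and Col1a1 differ between SB25 and SB20, where SB25 is 1 plate, so batch and plate cannot be told apart. Col1a1 is highest in pool 5. Plac8, Clec12a, Cd53 and the Serpinb1 row are highest on plate 11.

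In pools 1 and 2 alone, where label and well table name the same gate, 1613 genes were higher and 1745 lower. The leading differences stood there too: Irf8 2.57, H2-DMa 2.46, Satb1 3.47, Dntt 2.67, Mpo 0.74 and Elane -1.92, each with an adjusted p under 0.05. Of 99 named genes tested in both, 83 kept their call and 16 did not, with 0 reversed.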

How the data were processed

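Wells of 22 amplification pools of mouse bone marrow progenitors, profiled by MARS-seq, were analysed. The authors deposited a table of UMI counts per gene and well and a well table, whose CD34 and FcgR columns hold surface protein levels of index-sorted wells, intensities with no stated normalization, per the file headers. Reads were converted with bcl2fastq 2.15.0.4 and the build was mm9, per the submitters' processing notes; the aligner and counting rule are not stated in the sources used here. Rows that join several symbols are given as joined.

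Wells that received 1 cell and held 500 or more UMIs were kept, and their UMIs were summed per pool, grouped by the well table's description. Sums were tested with edgeR 4.0.16 in R 4.3.3 (TMM scaling, filterByExpr, quasi-likelihood test), with p-values adjusted over all genes tested and a threshold of 0.05. DESeq2 1.42.0 was an alternative. The SE is the log2 fold change divided by the square root of F. On simulated data of the gate comparison (7120 genes) 81% of 2-fold and 99.0% of 4-fold differences were recovered, with 4.79% false calls. For the comparison with few erythroid UMIs (5263 genes) 89.8% of 2-fold differences were recovered. The simulation changed few genes, as many up as down. It cannot show the share of false calls where as many genes differ as between gate and unsorted pools.

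A list's median is over the log2 ratios of its members' summed UMIs, with a floor of 3 counts over the gate for genes at 0. Of 357 list genes 353 had a row, 32 of them in a joined row, 1 was matched by an older symbol (Spi1, listed as Sfpi1), and Ighm, Hba-a1, Hbb-b2 and Ahsp had none. Cells were thinned to 1000 UMIs for shares of cells, which were tested by exact permutation over 74613 splits of the pools. Intervals and floors cover counting error only. No doublet caller was run, since wells were sorted with 1 cell each. No pair of pools agreed within sampling noise: over 231 pairs, chi-square divided by its degrees of freedom was 1.51 or more, over 1419 genes.

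The members and the gene lists were chosen with earlier results of these data known. Named genes are, per list, up to 4 with the largest change among those called (20 CPM or more where higher), the genes of the sort gate, the 10 largest rises and falls outside the lists (at least 50 CPM, no overlap of pools) and the 5 largest each way between gate batches; 2 genes that the rule takes are not reported here. Other named genes, among them Mpo, Ctsg, Prtn3, Sfpi1, Cebpa, Runx1, Gfi1, the genes named at or near 0 and the genes of plates 10 and 11, were chosen after their values were seen. The comparison with cells of few erythroid UMIs, that of plates 11 and 10, that of unsorted batches and the fits without a plate were chosen after seeing the data. Promoters are from RefSeq (GRCm38.p6), whose coordinates are not those of the counts' build; all 4 genes were matched by symbol.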

Additional observations from a re-analysis of the deposited data

Results flagged for a closer look

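In each of 146 sets of 6 gate pools, the highest or lowest pool was compared with the range of the set. Chance flags about 1 in 20 such sets, 7.3 here, and in 16 of them a pool lay far from the others.

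Gate pool 3 was the highest for Dntt (229 CPM), Mllt3 (33.9 CPM), Car1 (2.82 CPM, from 1 UMI) and Mtrnr2l (2567 CPM), and the lowest for Cst3 (1712 CPM). Gate pool 4 was the highest for Hoxa7 (181 CPM) and for Gata1 (44.2 CPM, 11 UMIs in 11 cells), and the share of its wells kept, 96.3%, was the lowest. Gate pool 5 was the highest for Col1a1 (210.0 CPM) and Mfsd2b (1.94 CPM, from 1 UMI). It also had the highest share of cells with macrophage and stroma UMIs (2.12%) and the lowest with dendritic UMIs (71.4%). Gate pool 6 was the highest for Elane (1617 CPM) and for the joined row of Acta2 (133 CPM). Gate pool 2 was the highest for Ms4a6c (267 CPM) and the lowest for Irf7 (8.04 CPM).

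Wells without a cell held UMIs in every pool, and the mean per such well was highest in gate pool 2, at 212 UMIs.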

How the results depend on the processing

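Of the 99 named genes, all kept direction and call with DESeq2, with all wild-type and Irf8-GFP groups in 1 fit and with wells of 250 or more UMIs; 98 did without TMM scaling, 96 to 98 without a gate pool, 92 without plate 10 and 97 without plate 11. With SB20 gate pools only 90 did and with SB25 only 86. Summed per plate 94 did, and Fcgr2b, Cd74, H2-Aa, Tipin and the joined Hmmr row lost their calls. Grouped by the GEO label instead of the well table, 2034 genes passed. Of 95 named genes tested there 60 kept direction and call and 25 lost their call, among them Gata1, Klf1, Epor, Car1, Ermap and Plac8. The sign reversed for 10 genes, with log2 fold changes of 4.57 for Cd74, 5.31 for H2-Aa, -0.15 for the Serpinb1c and Serpinb1a row, 0.69 for Hba-a2, 0.79 for Hbb-b1, 0.82 for Pf4, 0.15 for F2r, 1.23 for Ccl5, 0.29 for Tipin and 0.12 for Mki67. By the well table that grouping puts other cells in the gate; which of the groupings is right could not be settled here. With 5 or more UMIs the share of cells differed by -0.406 points for MHC class II genes and -11.9 points for neutrophil-primed genes; the cause was not tested. The calls for secondary granule, neutrophil-primed and macrophage and stroma shares were lost with fewer gate pools.

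Between SB25 and SB20, 145 genes passed without the low-count filter, 164 without plate 11, 130 without plate 10, and 7 (without pool 5) to 62 (without pool 3) when a gate pool was left out. Between plates 11 and 10, 68 passed with DESeq2, 225 without the filter, and 52 (without pool 2) to 399 (without pool 4) when a pool was left out. Between unsorted batches 149 passed with DESeq2. With CD34 of 200 or more, 610 genes passed in the surface range. Where a plate was left with 1 pool, its spread was taken from the other pools. The causes were not tested. No paired analysis was possible because the replicate numbers were given in accession order and pair no pools. Depth limits the gate to 285918 UMIs in its shallowest pool.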
